A study of Mus musculus with 16 samples.

Results

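Immediate early genes are the first genes that a cell transcribes when it is stimulated, and their messenger RNA rises without new protein having to be made. The 10 genes described here were Fos, Junb, Egr1, Egr2, Egr3, Nr4a1, Nr4a2, Ier2, Ier5 and Dusp1. They were taken as all non-control probes carrying 1 of these names, which gave 13 of the 41174 probes on the array. All 10 genes passed the filter on low signal, Egr3 only through its arrays after overload, among 15667 genes tested. The main result was a genotype difference in the unloaded ventricle: Nr4a1 was 4.25-fold and Fos 3.48-fold lower in mice with extra nitric oxide synthase in their heart muscle cells. The Nr4a1 difference passed in all 28 alternative runs. That of Fos, whose signal was low, was lost in 7 of 27. Egr2 was higher after pressure overload in both genotypes. Egr3 was measured only after overload, so its rise is a lower bound and its test is not support. Ier5 rose after overload in WT and fell in transgenic mice, although the test of that difference itself did not pass. In transgenic mice no overload call was kept without the 3 arrays that stood apart in their share of probes above background.

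Messenger RNA of the left ventricle was hybridised to one-colour arrays in 16 mice of a C57BL/6 N background, 1 array per mouse. Transgenic mice (NOS3-TG) carried alpha-MHC-NOS3, in which the alpha-myosin heavy chain promoter, active in cardiomyocytes, drives nitric oxide synthase 3 (Nos3). The others were wild-type (WT) littermates, and mice of both genotypes were either left intact, here called baseline, or taken 10 weeks after constriction of the transverse aorta (TAC), an operation that makes the left ventricle pump against higher pressure. There were 4 mice in each of the 4 groups, 2 males and 2 females. The labels state that animals were matched for age and weight and name no age. The baseline mice were intact rather than operated without constriction, so load and surgery cannot be told apart. The RNA came from a ring of the middle ventricle, so fewer cells of a type and less RNA per cell cannot be told apart.

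Stimuli such as stretch, neurohormones and calcium entry activate serum response factor at CArG boxes and CREB at cyclic AMP response elements (CRE) in the promoters of these genes. Fos and Junb form the dimeric factor AP-1, and Egr1 to Egr3 are zinc finger factors that bind GC-rich sites. Nr4a1 and Nr4a2 are orphan nuclear receptors. Ier2 and Ier5 encode small nuclear proteins of a shared family, and Dusp1 encodes a phosphatase that switches off MAP kinases, part of the feedback that ends the response.

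The upstream sequences of 7 of the 10 genes were found in RefSeq promoters of build GRCm38.p6. The 250 bases before the start site are shown for the 4 genes with the most negative genotype difference at baseline among those 7. Each is 5′ to 3′ on the gene's strand, with capitals at every match to a searched motif. They lie at chr12:85473640-85473889 (+) for Fos, chr15:101266596-101266845 (+) for Nr4a1, chr2:57124004-57124253 (-) for Nr4a2 and chr17:26508473-26508722 (-) for Dusp1.
Fos: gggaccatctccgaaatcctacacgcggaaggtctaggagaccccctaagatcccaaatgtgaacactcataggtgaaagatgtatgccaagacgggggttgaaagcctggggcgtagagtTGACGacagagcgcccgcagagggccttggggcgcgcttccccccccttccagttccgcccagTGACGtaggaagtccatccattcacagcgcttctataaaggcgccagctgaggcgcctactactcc
Nr4a1: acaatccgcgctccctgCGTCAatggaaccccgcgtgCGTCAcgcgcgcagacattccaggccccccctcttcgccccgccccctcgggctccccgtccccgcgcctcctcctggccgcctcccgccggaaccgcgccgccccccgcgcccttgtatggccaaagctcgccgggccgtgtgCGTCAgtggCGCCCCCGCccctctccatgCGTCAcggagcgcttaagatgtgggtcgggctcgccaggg
Nr4a2: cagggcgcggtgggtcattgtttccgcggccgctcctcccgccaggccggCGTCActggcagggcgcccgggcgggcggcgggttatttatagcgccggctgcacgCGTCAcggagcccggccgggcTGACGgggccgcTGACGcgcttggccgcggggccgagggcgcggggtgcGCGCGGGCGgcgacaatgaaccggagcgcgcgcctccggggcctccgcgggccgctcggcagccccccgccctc
Dusp1: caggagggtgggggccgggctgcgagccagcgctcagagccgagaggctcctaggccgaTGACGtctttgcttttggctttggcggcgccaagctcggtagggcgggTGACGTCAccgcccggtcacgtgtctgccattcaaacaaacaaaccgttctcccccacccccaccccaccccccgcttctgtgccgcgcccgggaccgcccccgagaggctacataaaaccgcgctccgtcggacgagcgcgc

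A set of 6 motifs were searched on both strands: the CArG box, the full CRE (TGACGTCA), the CRE core (TGACG, of which a full CRE holds 2 overlapping copies), the AP-1 site (TGANTCA), the EGR site (GCGNGGGCG) and the NR4A site (AAAGGTCA). The CRE core was present upstream of 6 of the 7 genes, against 17.8% of all 32851 promoter windows of the same length. Nr4a1 held 4 copies, at -233, -213, -69 and -40 from the start, and Nr4a2 held 4, at -200, -144, -123 and -111. Dusp1 held 3, of which 2 overlapped in the full CRE at -143, Fos held 2 and Junb 1. Among all windows, 0.688% held at least 3 copies. An EGR site lay at -60 in Nr4a1 and at -74 in Nr4a2, and 4.7% of all windows held one. A full CRE was present in 1.55% of windows and here only upstream of Dusp1. A CArG box was present in 1.47% of windows and here only in Egr2, which has 5 listed starts. Egr2 thus had 5 windows to match, against 1 for each other gene, while the shares given are per window. The second of its starts had the letters CCTTTTTTGG at -72. The third had the letters CCATATATGG at -72 and 2 CRE cores, at -111 and -55. No AP-1 or NR4A site was found upstream of the 7 genes, against 6.75% and 1.34% of all windows, and Ier5 held none of the motifs. These matches are letters in a window and not measured binding.

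Values are log2 of the processed signal minus the array's 75th percentile, so that 0 is the level of the probe at that percentile. Levels of different probes are not compared. The 75th percentile lay between 1053.4 and 1490.6 on the 16 arrays. A median of 52.5% of probes was well above background, and 3 arrays stood apart, all from NOS3-TG mice: baseline replicate 2 with 44.2%, TAC replicate 3 with 46.2% and TAC replicate 4 with 68.0%. Slides 1 and 4 held the baseline arrays and slides 2 and 3 the TAC arrays, so TAC and slide cannot be told apart. Every slide held both genotypes and sexes at fixed positions. NOS3-TG mice lay at positions 1 (male) and 2 (female) and WT mice at 3 (male) and 4 (female). Neither genotype nor sex can therefore be told apart from position. Slide 3 was scanned on a second day and the other slides on the first, so all baseline arrays share 1 scan day. The Nos3 level was 7.63 to 8.02 in NOS3-TG against 0.96 to 1.45 in WT at baseline, and 6.94 to 7.77 against 1.51 to 1.85 after TAC. The natriuretic peptide Nppb was higher after TAC in both genotypes, without overlap, and all 8 cardiomyocyte markers were well above background on all 16 arrays. Tests are limma fits over all genes with Benjamini-Hochberg adjustment, and a gene is called at an adjusted p under 0.05. Precision is limited by the number of mice, and a group difference had a median standard error of 0.132 over all genes.

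Fos was measured by a probe present on 10 spots and was well above background on 14 of the 16 arrays. Its level was -0.77, -1.28, -1.98 and -1.85 in the 4 WT baseline ventricles. It was -3.54, -3.18, -3.70 and -2.66 in NOS3-TG baseline ventricles. The groups did not overlap, and every WT ventricle lay above every NOS3-TG one. After TAC the level was -2.01, -2.82, -2.50 and -2.63 in WT and -3.03, -3.66, -3.30 and -3.38 in NOS3-TG, again without overlap. WT ventricles after TAC lay below all WT baseline ones, whereas the NOS3-TG groups overlapped.

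Junb, the partner of Fos, had 2 probes, which had the same sign in every comparison. Its level ranged from 3.19 to 4.73 in WT baseline ventricles and from 3.09 to 3.58 in NOS3-TG ones. After TAC it ranged from 3.58 to 4.31 in WT and from 3.53 to 4.14 in NOS3-TG. All 4 groups overlapped with at least 1 other, and the WT baseline group was the widest, with a standard deviation of 0.66 (n = 4).

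Egr1, a zinc finger factor induced by growth signals, reached 2.56, 1.58, 1.89 and 0.65 in WT baseline ventricles. In NOS3-TG baseline ventricles it reached 0.88, 0.01, 0.30 and 0.90. WT ventricles were mostly higher, but the lowest WT mouse lay among the NOS3-TG mice. After TAC the level was 1.40, 1.32, 1.87 and 1.20 in WT and 1.38, 0.26, 1.60 and 1.41 in NOS3-TG, which overlapped.

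Egr2 was low at baseline and higher after TAC. Its level was -0.25, -0.99, -0.83 and -1.85 in WT baseline ventricles and 0.98, 0.22, 1.20 and 1.03 in WT ventricles after TAC, which did not overlap. In NOS3-TG it was -1.03, -1.16, -1.53 and -1.02 at baseline and 0.94, -1.11, 0.59 and 0.54 after TAC. In NOS3-TG 3 of the 4 TAC ventricles stood above all baseline ones and replicate 2, a female, remained among them.

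Egr3 was near the limit of the array. None of the 8 baseline arrays showed its probe well above background, whereas 4 of 4 WT and 3 of 4 NOS3-TG arrays did after TAC. The level was -3.02, -3.03, -2.78 and -1.61 in WT after TAC and -3.25, -3.88, -4.29 and -2.48 in NOS3-TG after TAC. At baseline the measured values lay between -5.90 and -4.47 in WT and between -6.20 and -4.51 in NOS3-TG, which are bounds rather than levels. A second Egr3 probe was not well above background on any array.

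Nr4a1 separated the groups most clearly. Its level was 5.68, 5.20, 5.10 and 4.96 in WT baseline ventricles. It was 3.09, 2.93, 3.20 and 3.36 in NOS3-TG baseline ventricles, with no overlap and a gap wider than the range of either group. After TAC it was 4.48, 4.06, 3.39 and 3.53 in WT and 3.12, 3.15, 2.52 and 3.28 in NOS3-TG. The WT TAC group thus lay between WT baseline and NOS3-TG, overlapping neither WT baseline nor NOS3-TG after TAC, and the NOS3-TG groups overlapped each other.

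Nr4a2 had a narrower spread of levels between groups. It ranged from -2.33 to -1.22 in WT and from -2.95 to -2.07 in NOS3-TG at baseline, which overlapped. After TAC it ranged from -2.10 to -1.92 in WT and from -2.76 to -2.16 in NOS3-TG, which did not.

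Ier2 ranged from 1.46 to 1.77 in WT and from 0.92 to 1.35 in NOS3-TG at baseline, without overlap, and from 1.32 to 1.95 and from 0.98 to 1.81 after TAC, with overlap. Ier5, whose product takes part in the heat shock response, had another pattern of levels. Its level was 4.70, 4.81, 4.88 and 5.13 in WT at baseline and 5.43, 5.43, 5.56 and 5.45 in WT after TAC. It was 5.06, 5.68, 5.44 and 5.69 in NOS3-TG at baseline and 4.76, 5.06, 4.92 and 5.17 in NOS3-TG after TAC. WT baseline and NOS3-TG TAC ventricles thus formed a lower pair of groups, and WT TAC and most NOS3-TG baseline ventricles a higher pair. The signal of Ier5 was high, but none of the spots of these genes was flagged as saturated (0 of 496 over all arrays).

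Dusp1 was highest in WT baseline ventricles, at 3.30, 3.42, 2.96 and 3.07. It was 2.07, 2.11, 2.28 and 2.49 in NOS3-TG baseline ventricles, with no overlap. After TAC it was 2.40, 3.16, 2.52 and 2.05 in WT and 1.96, 2.26, 1.73 and 2.34 in NOS3-TG, which overlapped.

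**Figure D1:**
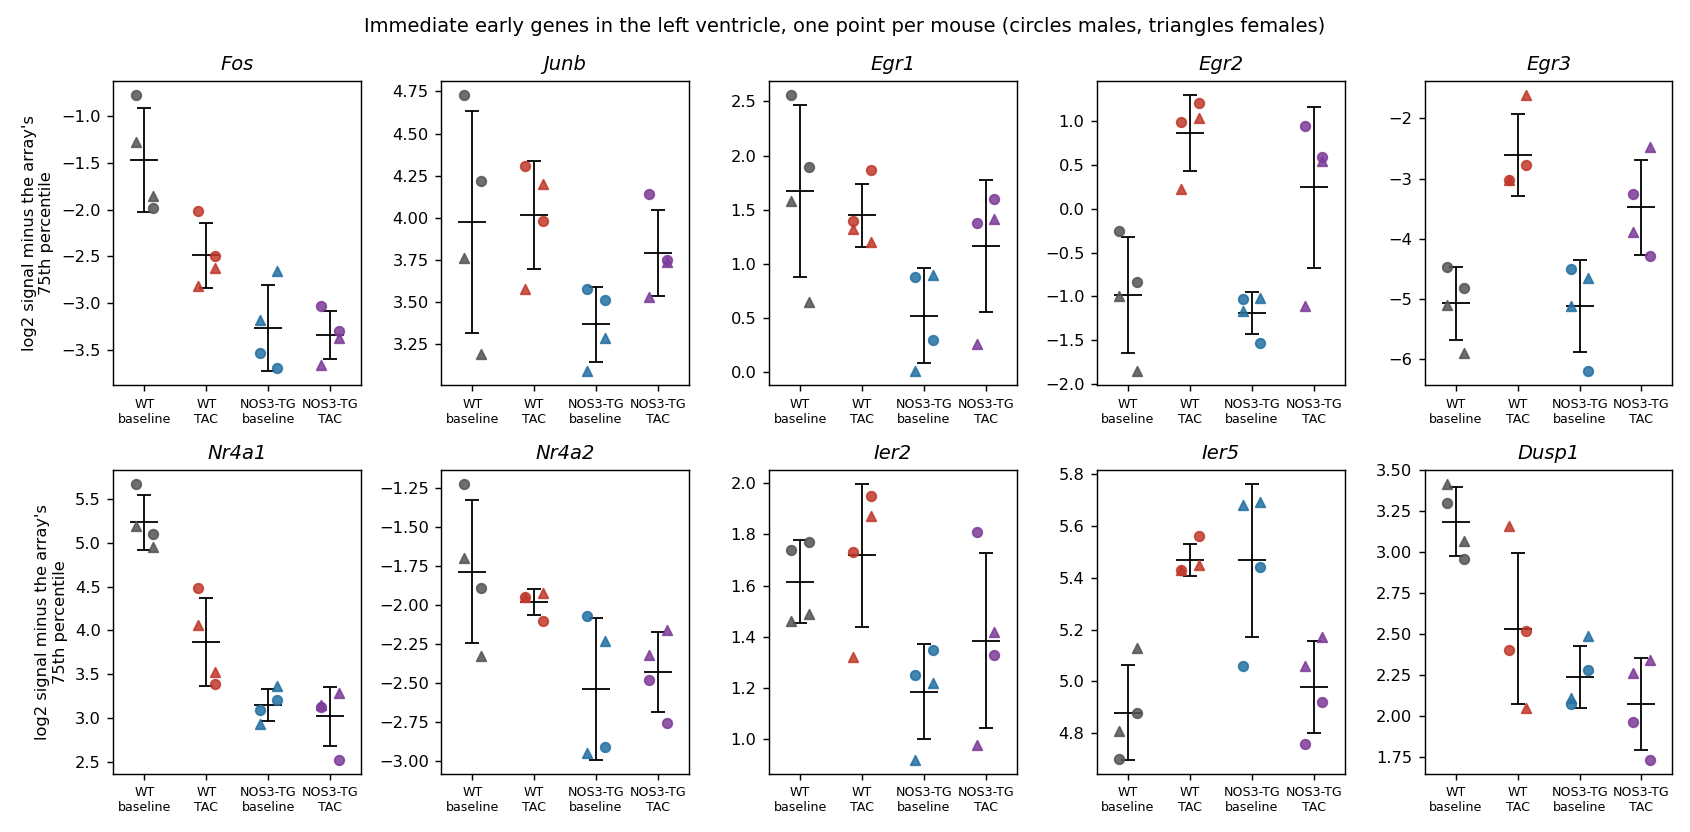
Level of the 10 genes in each ventricle, as log2 signal minus the array's 75th percentile, on the y axis for the 4 groups on the x axis; points are mice (circles males, triangles females), and bars give the mean and standard deviation of 4. Each panel has its own scale. WT baseline ventricles stand above the other groups for Nr4a1, and WT ventricles after TAC stand above WT baseline ones for Egr2.

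The first comparison asks how the genotypes differed without added load. Of the 10 genes, 2 were called, both lower in NOS3-TG, where 0.415% of all genes were called and 0.083% were called lower. Nr4a1 was lower by a log2 difference of -2.09 ± 0.24 (SE, 4 against 4), an adjusted p of 0.00208 in limma, which ranked 34 by size among the 15667 genes. Fos was lower by -1.80 ± 0.29 (SE), an adjusted p of 0.0155 in limma, at rank 65. Nr4a1 remained called with any 1 array left out. Fos was lost without WT baseline replicate 2 (adjusted p 0.0675), NOS3-TG baseline replicate 2 (0.0527) or NOS3-TG baseline replicate 3 (0.0588) in limma, and without the 3 arrays that stood apart (-1.85, adjusted p 0.154).

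The other 8 genes did not pass in this fit. Dusp1 had a difference of -0.95 ± 0.20 (SE) and an adjusted p of 0.0587 in limma, with no overlap between the genotypes. It passed in 5 of 28 alternatives, but not with slide as a fixed block. With scan day as a block it passed (adjusted p 0.0489 in limma). That block left the difference at -0.95, as all baseline arrays share 1 scan day. Ier5 had the only positive difference, 0.59 ± 0.12 (SE), with an adjusted p of 0.052 in limma. It passed in 6 of 28 alternatives, among them slide as a fixed block (0.0267). Egr1 had -1.15 ± 0.32 (SE), with an adjusted p of 0.152 in limma. Junb had -0.61, Nr4a2 -0.75, Ier2 -0.43, Egr2 -0.21 and Egr3 -0.05, the last from values below background. In all, 9 of 10 differences were negative, with a median of -0.68, against 63.8% of all genes negative and a median of -0.06. Groups did not overlap for 4 of the 10 genes, against 9.95% of all genes.

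Both baseline slides held 2 mice of each genotype, so each slide gave a difference of its own. Nr4a1 differed by -2.43 on slide 1 and -1.75 on slide 4. Fos differed by -2.34 and -1.27 on the same slides, Dusp1 by -1.27 and -0.63, and Ier5 by 0.61 and 0.56. Genotype differences of Nr4a1, Fos, Dusp1 and Ier5 thus had the same sign on both slides, on which each genotype held the same positions. On slide 1, 9 of the 10 genes were lower in NOS3-TG, and on slide 4 this held for 8. Both counts include Egr3 (-0.02 and -0.07), which was not well above background on any baseline array. They are a description, as the share of all genes lower on a single slide was not computed.

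The same contrast after TAC asks whether the genotypes differed under load. None of the 10 genes was called, where 0.281% of all genes were, although 5 had an unadjusted p under 0.05 in limma, against 12.3% of all genes. All 10 differences were negative, with a median of -0.48, against 48.3% of all genes negative and a median of 0.01. Ier5 had -0.49 ± 0.12 (SE) and an adjusted p of 0.102 in limma, the reverse of its baseline sign. Nr4a1 had -0.85 ± 0.24 (SE) and an adjusted p of 0.166 in limma. Fos had -0.85 ± 0.29 (SE) and an adjusted p of 0.246 in limma. The 2 genotypes did not overlap for Fos, Nr4a1, Nr4a2 and Ier5, against 5.55% of all genes without overlap. All 10 genes were lower in NOS3-TG on slide 2 and on slide 3, with medians of -0.54 and -0.50. Egr1 differed by only -0.03 on slide 3, which held both NOS3-TG TAC arrays that stood apart. The share of all genes lower on a single slide was not computed, so these counts are a description. Nr4a1 differed by -1.13 and -0.57 and Ier5 by -0.52 and -0.46 on slides 2 and 3.

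**Figure D2:**
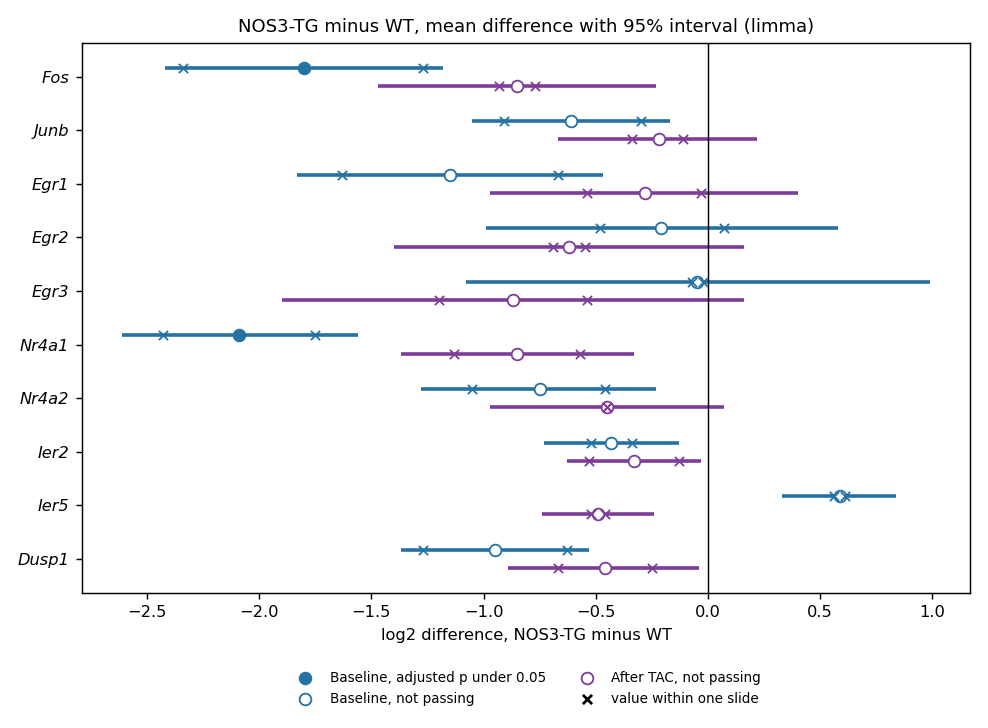
Genotype difference of the 10 genes, NOS3-TG minus WT, as a log2 difference on the x axis, at baseline and after TAC; circles are limma estimates, bars 95% intervals, filled circles adjusted p under 0.05, and crosses the value within each slide. Nr4a1 (-2.09) and Fos (-1.80) at baseline are the filled circles, and Ier5 is the only gene to the right of 0, at baseline.

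Lists of cell type markers were set beside the genotype comparison. Summed cardiomyocyte markers were 10.47 to 10.87 in WT and 10.40 to 10.79 in NOS3-TG at baseline, with 0 of 8 called. The summed level of 8 macrophage markers was 3.78 to 3.87 in WT and 4.29 to 4.58 in NOS3-TG at baseline, without overlap, and 2 of the 8 were called higher in NOS3-TG (Adgre1 by 0.63 and Csf1r by 0.59). Summed endothelial markers were 4.81 to 4.92 in WT and 4.51 to 4.95 in NOS3-TG, and fibroblast markers 7.18 to 7.84 and 7.22 to 7.74. Smooth muscle and pericyte markers were 6.55 to 7.10 and 6.33 to 6.66. Skeletal muscle markers (Ckm, Myh4, Tnni2 and Tnnt3) were 7.34 to 7.59 in WT and 6.84 to 7.27 in NOS3-TG, without overlap, with 0 of 4 called. The brightest genes weigh most in this sum, and it was not tested whether it follows skeletal muscle cells. Of the neutrophil genes, S100a9 was well above background on 16 arrays, S100a8 on 12, Mpo on 4, Csf3r on 1 and Retnlg on 0, and the summed level of the 3 that passed the filter (S100a8, S100a9 and Mpo) was -2.26 to 0.77 in WT and -0.99 to 0.05 in NOS3-TG. The part of these cells in the genotype differences was not tested. The summed level of 17 clock genes was 6.87 to 7.44 in WT and 6.33 to 7.46 in NOS3-TG at baseline, and none of the 17 was called.

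The next comparison asks how 10 weeks of TAC changed these genes in WT. Of the 10, 6 were called, 3 higher and 3 lower, where 28.4% of all genes were called, 10.9% higher and 17.6% lower. Egr2 rose by 1.84 ± 0.36 (SE), a 3.57-fold difference with an adjusted p of 0.00306 in limma. Egr3 was at least 3.35-fold higher, a bound because no baseline array measured it. It entered the fit only through its TAC arrays, so its adjusted p of 0.00283 in limma is not support, and without it 5 of 9 genes were called, 2 higher and 3 lower. Ier5 rose by 0.59 ± 0.12 (SE), with an adjusted p of 0.00313 in limma. Nr4a1 fell by 1.37 ± 0.24 (SE), with an adjusted p of 0.00168 in limma. Egr2, Ier5 and Nr4a1 remained called with any 1 array left out. On the first scan day alone Egr2 (1.58, adjusted p 0.0652) and Ier5 (0.55, 0.0555) were lost in limma, and Nr4a1 was kept.

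Fos fell by 1.02 ± 0.29 (SE), with an adjusted p of 0.0187 in limma. That call was lost without WT baseline replicate 1 (adjusted p 0.0556), WT baseline replicate 2 (0.0537) or WT TAC replicate 4 (0.0525) in limma. It was also lost with scan day as a block (-0.99, 0.0602), with normexp background correction (-0.64, 0.0711) and on the first scan day alone (-0.95, 0.193). Dusp1 fell by 0.65 ± 0.20 (SE), with an adjusted p of 0.0251 in limma. Its call was lost without WT baseline replicate 1 (0.07) or 2 (0.0658) and without WT TAC replicate 1 (0.054) or 4 (0.0707). The Dusp1 call was also lost with scan day as a block (-0.51, 0.111) and on the first scan day alone (-0.41, 0.218). Without a filter (0.0605) and with the compared groups alone (0.0945) it did not pass either. Junb had 0.04, Egr1 -0.22, Nr4a2 -0.19 and Ier2 0.10, none of which passed. Groups did not overlap for 4 of the 9 genes other than Egr3, against 27.5% of all genes.

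In NOS3-TG mice, Egr2 and Egr3 were again higher after TAC, and Ier5 was lower. Of the 10 genes, 3 were called, 2 higher and 1 lower, where 11.8% of all genes were called, 6.46% higher and 5.34% lower. Egr2 rose by 1.42 ± 0.36 (SE), a 2.68-fold difference with an adjusted p of 0.0244 in limma. Egr3 was at least 1.31-fold higher, measured on 3 of the 4 TAC arrays and none at baseline. Its adjusted p of 0.0423 in limma is not support for the same reason as in WT, and without it 2 of 9 genes were called, 1 higher and 1 lower. Ier5 fell by 0.49 ± 0.12 (SE), with an adjusted p of 0.0183 in limma. Nr4a1 had -0.13, Fos -0.07 and Dusp1 -0.17, with 95% intervals of -0.65 to 0.39, -0.69 to 0.55 and -0.59 to 0.26.

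None of the 3 calls was kept without the arrays that stood apart, where Egr2 had 1.22, Egr3 1.56 and Ier5 -0.52 with adjusted p of 0.176, 0.179 and 0.11 in limma. With scan day as a block Egr2 (1.13, adjusted p 0.109) and Egr3 (1.39, 0.16) were lost, and with slide as a random block Egr3 was lost (0.0534). With single arrays left out, Egr2 was lost without NOS3-TG baseline replicate 1 or 3 or TAC replicate 1, 3 or 4, up to an adjusted p of 0.0787. Ier5 was lost without NOS3-TG baseline replicate 3 or 4 or TAC replicate 1, up to 0.0565. Egr3 was lost in 9 of the 16 omissions, up to 0.125 without NOS3-TG TAC replicate 4. They were NOS3-TG baseline replicates 2, 3 and 4, NOS3-TG TAC replicates 1 and 4, WT baseline replicates 2 and 3, and WT TAC replicates 1 and 3.

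**Figure D3:**
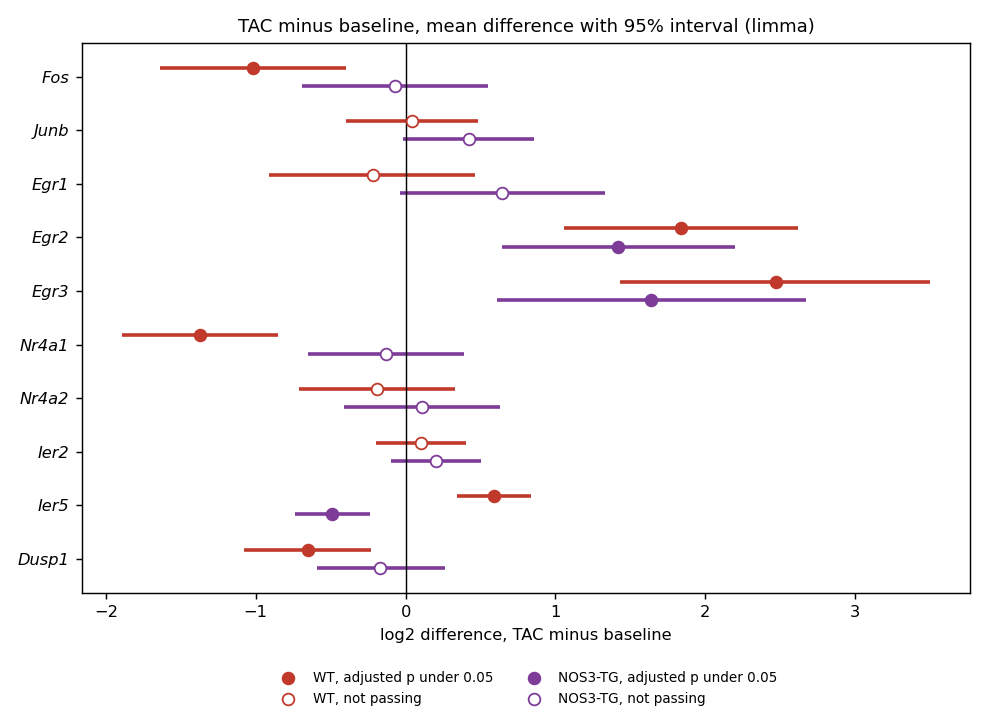
Difference of the 10 genes after TAC, TAC minus baseline, as a log2 difference on the x axis, in WT and NOS3-TG; circles are limma estimates, bars 95% intervals, and filled circles adjusted p under 0.05. Egr2 and Egr3 lie to the right of 0 in both genotypes, and Ier5 lies on opposite sides (0.59 and -0.49).

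Whether the response to TAC differed between the genotypes was tested as an interaction. None of the 10 genes was called, and 0% of all genes were (limma, 0 of 15667), with 1166 genes or 7.44% at an unadjusted p under 0.05. Ier5 had the smallest p of the 10, with -1.08 ± 0.16 (SE), an unadjusted p of 1.81e-05 and an adjusted p of 0.242 in limma. It passed, at an adjusted p of 0.0356, without NOS3-TG baseline replicate 1, whose Ier5 level of 5.06 was the lowest of its group. Nr4a1 had 1.24 ± 0.34 (SE) and an adjusted p of 0.654, and Fos 0.95 ± 0.40 (SE) and an adjusted p of 0.665, both in limma. The TAC comparison in WT and the baseline genotype comparison share the WT baseline mice. For Nr4a1 they gave -1.37 and -2.09, for Fos -1.02 and -1.80, for Dusp1 -0.65 and -0.95, and for Ier5 0.59 and 0.59.

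None of the genes was called between males and females, where 1.33% of all genes were, and 5 had an unadjusted p under 0.05 in limma, against 15.9% of all genes. Junb had the smallest p, with a difference of 0.48 ± 0.14 (SE) higher in males, with an adjusted p of 0.12 in limma. Egr1, Egr2 and Ier2 had 0.57, 0.55 and 0.28 and Ier5 -0.21.

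The other genes of the pathway were described by lists. Of 13 further AP-1 genes, 3 (23.1%, against 28.4% of all genes) were called in WT after TAC, all higher: the small Maf protein Maff (1.02), the Fos relative Fosl2 (0.47) and Mafg (0.36). In NOS3-TG after TAC, 1 was called, the AP-1 repressor Jdp2 (-0.41). Mafg was higher in NOS3-TG at baseline by 0.61 ± 0.08 (SE), with an adjusted p of 0.00512 in limma. The median of the AP-1 genes was 0.12 in WT after TAC, against -0.06 for all genes. Of the EGR and NR4A relatives and corepressors, Egr4 and Nr4a3 did not pass the filter. Nab2, a corepressor that binds EGR proteins and is induced by them, was higher after TAC in WT (0.90 ± 0.22) and in NOS3-TG (1.04 ± 0.22), with adjusted p of 0.00929 and 0.0104 in limma. Nab1 was not called.

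Of 44 other immediate early genes measured, 8 were higher and 7 lower in WT after TAC, a share of 34.1% against 28.4% of all genes. The matricellular gene Ccn2 rose by 2.12, Myc by 0.79, the NF-kappaB regulator Nfkbiz by 0.71 and Ppp1r15a by 0.65. Rgs2, a brake on G protein signalling, fell by 1.11, Gadd45a by 0.90, the clock gene Per1 by 0.88 and Csrnp1 by 0.66. In NOS3-TG 3 were higher and 8 lower after TAC (25.0%, against 11.8% of all genes), with Ccn2 at 1.56, Plk2 at 0.68 and Odc1 at 0.48, and Per1 at -1.14, Klf9 at -0.70, the kinase Sgk1 at -0.64 and Amd1 at -0.62. The medians were 0.06 in WT and -0.04 in NOS3-TG, against -0.06 and 0 for all genes. At baseline 1 of the 44 differed between the genotypes, Csrnp1, lower in NOS3-TG by -0.54 with an adjusted p of 0.0388 in limma.

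Dusp1 belongs to the feedback genes, of which 17 others were measured. In WT after TAC 6 were higher and 3 lower, 52.9% against 28.4% of all genes. Spry4, an inhibitor of receptor tyrosine kinase signalling, rose by 1.83, Dusp3 by 1.02, Dusp4 by 0.96 and Dusp16 by 0.71, while Dusp10 fell by 0.78, Dusp2 by 0.67 and Dusp7 by 0.41. In NOS3-TG 6 were higher and 1 lower (41.2%, against 11.8% of all genes), with Spry4 at 2.32, Dusp4 at 1.09, Spred2 at 0.41 and Spred1 at 0.39, and Zfp36, which destabilises messages, at -0.55. None was called between the genotypes in either condition.

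Among 29 regulators that act upstream of the 10 genes, 2 were higher and 6 lower in WT after TAC, a share of 27.6%, close to the 28.4% of all genes. Crem, a CREB family factor with activator and repressor forms, rose by 0.92 and the ternary complex factor Elk3 by 0.43. The p38 kinase activator Map2k6 fell by 1.84, the kinase Rps6ka5 by 1.19, the p38 kinase Mapk14 by 0.76 and Mef2d by 0.68. In NOS3-TG 2 were higher and 4 lower (20.7%, against 11.8% of all genes), with Crem at 0.58, Elk3 at 0.33, Map2k6 at -0.95, Rps6ka5 at -0.95, Mapk14 at -0.44 and Mef2d at -0.41. None of the 29 was called between the genotypes.

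The values of other lists are given beside the TAC results, where 28.4% of all genes were called in WT and 11.8% in NOS3-TG. Of 17 clock genes, 1 was higher and 8 lower in WT after TAC, and 1 was higher and 4 lower in NOS3-TG. Their summed level was 5.88 to 6.36 in WT and 6.11 to 6.56 in NOS3-TG after TAC, against 6.87 to 7.44 and 6.33 to 7.46 at baseline. Of 9 glucocorticoid-induced genes, 1 was higher and 1 lower in WT (22.2%), and 3 were lower in NOS3-TG (Per1, Tsc22d3 and Sgk1). Cardiomyocyte markers had 2 of 8 lower in WT after TAC, Ryr2 (-0.66) and Pln (-0.39), and 0 of 8 called in NOS3-TG. Macrophage markers had 4 of 8 higher in WT after TAC, with a summed level of 3.98 to 4.43 against 3.78 to 3.87 at baseline. In NOS3-TG 2 of 8 were higher, and the summed level overlapped, 4.29 to 4.67 against 4.29 to 4.58. Endothelial markers had 4 of 6 higher in WT, with a summed level of 4.81 to 4.92 at baseline and 5.14 to 5.32 after TAC, and 1 of 6 higher in NOS3-TG, with 4.51 to 4.95 and 5.00 to 5.19. Fibroblast markers had 3 of 7 higher in WT, Postn by 2.46, Col1a1 by 1.32 and Col1a2 by 0.81, and 1 of 7 in NOS3-TG, Postn by 1.67. Smooth muscle and pericyte markers had Acta2 higher (0.87 in WT, 1.30 in NOS3-TG) and Myh11 lower (-1.07 and -1.12). Their summed level was 6.55 to 7.10 at baseline and 6.86 to 7.38 after TAC in WT, and 6.33 to 6.66 and 7.05 to 7.35 in NOS3-TG. Of 4 skeletal muscle markers, Tnnt3 was higher (0.64 in WT, 1.54 in NOS3-TG), Tnni2 lower (-1.30 and -0.92) and Ckm lower in WT (-0.44). The part of clock and hormone-induced genes and of these cell types in the TAC differences was not tested.

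Finally, the 10 genes were compared among mice of 1 group, after each group's mean was removed. Over the 45 pairs Pearson's r had a median of 0.32, and 32 were positive. By permutation within groups (100000 draws, two-sided, 16 arrays), 7 pairs passed at a Benjamini-Hochberg adjusted p of 0.0409, 6 of them positive. None passed by Spearman's rho, whose lowest adjusted p was 0.0612. Egr1 and Egr2 were the closest pair, with r = 0.84 (permutation p 0.00248) and rho = 0.79 (permutation p 0.00136), and r = 0.66 without the 2 arrays farthest from the median of Egr1.

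The other 6 pairs were as follows. Egr2 and Ier2 had r = 0.74 (rho 0.63, permutation p 0.00637 and 0.0227), with r = 0.66 without the 2 farthest arrays. Junb and Egr2 had r = 0.72 (rho 0.66, permutation p 0.0047 and 0.0149), with 0.57 on the same basis. Egr3 and Nr4a2 had r = 0.71 (rho 0.67, permutation p 0.00339 and 0.0096), with 0.73. Egr3 was well above background on only 7 of the 16 arrays, so this pair rests largely on values near background and is not support. Junb and Ier2 had r = 0.67 (rho 0.72, permutation p 0.00156 and 0.00632), with 0.84. Nr4a1 and Nr4a2, the 2 nuclear receptors, had r = 0.56 (rho 0.59, permutation p 0.00521 and 0.00915), with 0.60. Junb and Ier5 ran in opposite directions, with r = -0.62 (rho -0.63, permutation p 0.00545 and 0.021) and -0.48.

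These relations share the array and its scaling. The mean deviation of the 10 genes had r = 0.24 with the array's 75th percentile and 0.26 with its share of probes above background. With the mean of each sex in each group removed, r was 0.77 for Egr1 and Egr2 and 0.65 for Egr2 and Ier2. It was 0.69 for Junb and Egr2, 0.68 for Egr3 and Nr4a2 and 0.53 for Junb and Ier2. For Nr4a1 and Nr4a2 it was 0.48, and for Junb and Ier5 -0.56. With slide means removed as well as group means, an alternative chosen after seeing the data, r was 0.81 for Egr1 and Egr2, 0.83 for Egr2 and Ier2, 0.75 for Junb and Egr2, 0.72 for Egr3 and Nr4a2, 0.78 for Junb and Ier2, 0.67 for Nr4a1 and Nr4a2, and -0.62 for Junb and Ier5. Without the 3 arrays that stood apart 0 pairs passed. There r was 0.87 for Egr1 and Egr2, 0.84 for Egr2 and Ier2, and 0.80 for Junb and Egr2. It was 0.73 for Egr3 and Nr4a2, 0.65 for Junb and Ier2, 0.44 for Nr4a1 and Nr4a2, and -0.62 for Junb and Ier5. With 1 array left out, 0 to 6 pairs passed.

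**Figure D4:**
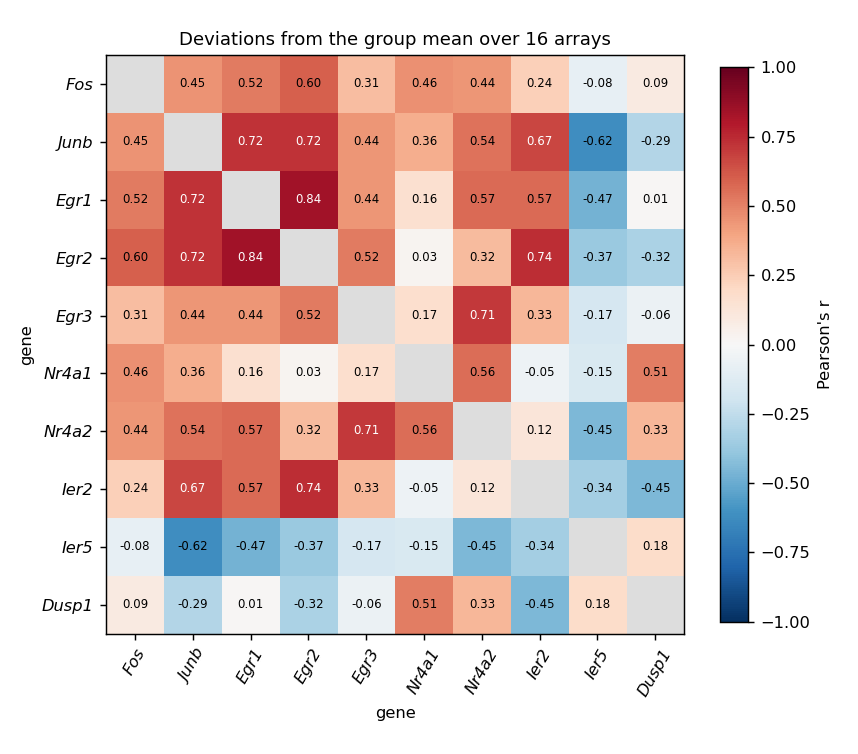
Pearson's r between the 10 genes over 16 arrays after the group means were removed; both axes list the genes, and colour and number give r. Egr1 and Egr2 have the highest value, 0.84, and the row of Ier5 is negative except with Dusp1.

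Each gene was also set against the mean of all 10. Nr4a2 had r = 0.76, Egr1 0.80, Egr2 0.75, Fos 0.74 and Junb 0.73, while Dusp1 had 0.18 and Ier5 -0.27, each being part of that mean. Among all other genes tested, those most like the mean of the 10 over the 16 arrays were Kdsr (r = 0.90), Tbcc (0.87), Fut10 (0.87), Slc50a1 (0.85) and Rarres2 (0.84), followed by Icam1, Alcam, Foxc2, Ing1 and Mtch1, given as a description. The genes most like Fos were Csrp2 (0.90), Colec12 (0.88), Nox4 (0.87), C1ra (0.86) and Mad2l2 (0.86). Those most like Egr1 with a symbol were Birc3 (0.91), Rgl1 (0.90), Crtc2 (0.88), a coactivator of CREB, and Pcdhga7 (0.88). Those most like Nr4a1 with a symbol were Lztr1 (0.92), Atg14 (0.88) and Jund (0.87), an AP-1 gene. All of these were picked as the highest of many correlations over 16 arrays, and no p was computed. A high r in these lists is therefore no evidence of a relation.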

How the data were processed

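Each array file that the authors deposited holds spot intensity values, the processed signal after background subtraction per the file headers, with flags for saturation and for signal above background. The software was Agilent Feature Extraction, version 9.5.1.1 in the submitters' processing notes. The log2 table that the authors deposited covers 22057 probes and 9 of the 10 genes, without a stated normalization. Array by array its values correlated with the log2 processed signal at 0.9995 or more across probes, which are not independent, and column medians were 9.95 to 9.99.

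Spots of 1 probe were averaged. Values are log2 processed signal minus the array's 75th percentile, for probes well above background on at least 4 of 16 arrays, with the probe of highest mean standing for a gene. Limma 3.58.1 in R 4.3.3 fitted the 4 group means and sex over 16 arrays, with Benjamini-Hochberg adjustment over all 15667 genes and a threshold of 0.05. Where no array of a group measured a gene, a lower bound of the fold is given, taking on each dim array the lowest signal counted as well above background, or the gene's own if higher. Summed levels of a list are log2 of the summed linear levels of its measured genes. Correlations and promoter matches used Python 3.11.15 with numpy 2.4.6 and pandas 2.3.3, and figures matplotlib 3.10.9.

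Gene names came from a RefSeq gene table by accession (22951 of 41174 probes) or by symbol (9768), and from the file otherwise (8455). The probe positions in the files come with no build in the sources used here and are not printed. The fit was tested on simulated data. Alternatives were other normalizations and filters, blocks for slide and scan day, other sets of arrays and each array left out; the run on the first scan day alone and the removal of slide and sex means from the correlations were chosen after seeing the data. Replicate numbers follow accession order and pair no samples. The 10 genes, the lists and the tests were chosen with earlier results of these data known. The text names all 10 genes, Nos3 and Nppb as label checks, up to 4 called genes per list and direction and further called ones where a list is counted, and the genes most like the 10, Fos, Egr1 and Nr4a1 in correlation.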

Additional observations from a re-analysis of the deposited data

Results flagged for a closer look

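Over the 40 combinations of gene and group, 2 held a mouse far from the other 3, where chance gives about 1 in 20. Egr1 was 0.26 in NOS3-TG TAC replicate 2, a female, while the other 3 of that group lay between 1.38 and 1.60. The same mouse had the lowest Egr2 of its group, -1.11. Nr4a2 was -2.10 in WT TAC replicate 3, in a group whose other 3 values lay between -1.95 and -1.92, so the group's whole spread was narrow.

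A second Ier2 probe, not used for the gene because it failed the filter on low signal, was well above background on 1 array, NOS3-TG baseline replicate 2, at a level of 0.57. On the other NOS3-TG baseline arrays its median with that array was -6.02, and WT baseline arrays did not exceed -5.26. That array is 1 of the 3 that stood apart, and the Ier2 probe used for the gene had 0.92 there, the lowest of its group.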

How the results depend on the processing

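No paired analysis was possible because the labels give the samples no replicate numbers, so numbers follow accession order and there is no replicate block. Slide holds both genotypes and was used as a block for the genotype comparisons instead: as a fixed block it called 3 of the 10 genes at baseline, adding Ier5, and 0 after TAC. The main counts of called genes among the 10 were 6 for TAC in WT, 3 for TAC in NOS3-TG, 2 for genotype at baseline and 0 otherwise. The second scan day held slide 3 alone, which has TAC arrays only, so scan day and TAC cannot be fully told apart. The run on the first day alone drops those TAC arrays and keeps all baseline ones. For TAC in WT the count was 2 on the first scan day alone, where only Nr4a1 and Egr3 remained. The count was 4 with scan day as a block, where Fos and Dusp1 were lost. For TAC in NOS3-TG it was 0 without a filter, without the 3 arrays that stood apart and on the first scan day alone, 1 with scan day as a block (Ier5) and with the compared groups alone, 2 with slide as a random block (Egr3 lost), and 0 to 3 over single omissions. For genotype at baseline it was 1 with normexp background correction, with the compared groups alone, without the 3 arrays and on the first scan day alone, 4 with the authors' values, and 1 to 4 over single omissions. For genotype by TAC and for sex it was 1 with 1 array left out each.

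Over all genes, TAC in WT called 4457 and gave 2959 with normexp, 2872 without a filter, 2694 with scan day as a block, 1254 on the first scan day and 2911 to 5026 with 1 array left out. TAC in NOS3-TG called 1849 and gave 1032 with normexp, 754 without a filter, 756 with scan day, 1186 with the compared groups alone, 401 without the 3 arrays, 666 on the first day and 971 to 2258 over single omissions. Genotype at baseline called 65 and gave 24 with normexp, 108 with the authors' values, 30 without a filter, 110 with the filter on all arrays, 109 with slide as a fixed block, 24 without the 3 arrays, 40 on the first day and 26 to 111 over omissions. Genotype after TAC called 44 and gave 78 with quantile normalization, 20 with normexp, 72 with the authors' values, 6 without a filter, 83 with the filter on all arrays, 19 without the sex term, 74 with slide as a fixed block, 4 with the compared groups alone, 3 without the 3 arrays, 3 on the first day and 2 to 61 over omissions. Sex called 208 and gave 42 with normexp, 32 without a filter, 24 without the 3 arrays, 82 on the first day and 67 to 550 over omissions. Genotype by TAC called 0 and gave 1 with 1 array left out. Correlated pairs numbered 7, and 2 with normexp, 0 without the 3 arrays and 0 to 6 over omissions. The cause of these moves was not tested beyond the fewer arrays or genes that an alternative leaves.

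Direction changed only for differences that were not called. Without the 3 arrays and on the first scan day the sex difference of Egr3 was 0.04 and 0.23. On the first day TAC in WT gave -0.09 for Ier2 and -0.03 for Junb. TAC in NOS3-TG gave 0.13 for Nr4a1 with scan day as a block and -0.11 for Nr4a2 with normexp. With 1 array left out, the values that changed sign in some omission ranged as follows. Baseline genotype values were -0.42 to 0.02 for Egr2 and -0.38 to 0.31 for Egr3. TAC in NOS3-TG gave -0.24 to 0.16 for Fos, -0.23 to 0.05 for Nr4a1 and -0.03 to 0.28 for Nr4a2. TAC in WT gave -0.01 to 0.19 for Ier2, -0.16 to 0.23 for Junb and -0.39 to 0.01 for Nr4a2. Sex gave -0.04 to 0.20 for Fos, -0.10 to 0.10 for Nr4a1 and -0.08 to 0.09 for Nr4a2, and the interaction 0 to 0.21 for Ier2.

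Of the called genes, Nr4a1 in the baseline genotype comparison passed under every alternative run, as it did for TAC in WT. The Fos genotype call was lost with normexp (-1.20, adjusted p 0.0804), with the compared groups alone (0.0839) and on the first scan day (0.0965), in limma. Dusp1 passed in that comparison with the authors' values (0.0448), with the filter on all arrays (0.0306), with scan day as a block (0.0489) and in 2 single omissions. Ier5 passed with quantile normalization (0.03), the authors' values (0.0264), the filter on all arrays (0.0289), slide as a fixed block (0.0267) and in 2 single omissions. The comparison of the compared groups alone was not run for the interaction and sex. The authors' values test 9 of the 10 genes and the filter on all arrays 8. Low signal limits Egr3 and, on 2 arrays, Fos.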
